A study of Spinacia oleracea with 6 samples.

Results

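Of the 30675 annotated genes considered in spinach (Spinacia oleracea), 21 were nearly silent in every control library and expressed in every heat library. These 21 genes were chosen by their measured levels, so the difference between heat and control is what defined them and is described here without a test. A gene was kept when it stood at no more than 0.2 CPM in each control library and at 1 CPM or more in each heat library. CPM here are read counts scaled by a size factor per library and by the mean library total, not by each library's own total. Each size factor is the median ratio over genes with reads in all 6 libraries. The count table lists 32450 genes in all. Left out were 1718 models outside the numbered annotation and 57 genes from a separate block of numbers.

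In the heat regime the incubator ran at 35 °C in daytime and at 25 °C overnight. In the control regime it ran at 20 °C in daytime and at 15 °C overnight, and the treatment took 4 days. Total RNA was sequenced from 3 libraries of each regime. The labels give no cultivar, tissue, plant age or number of plants, and leave unsaid whether replicate libraries are from different plants. p-values therefore measure only the spread between these libraries, which may be technical. The stated purpose was to find genes that differ under heat, some of them tied to resilience.

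Spinach is a leafy crop of cool seasons. In plants, a rise in temperature is sensed within the cell and acts largely through heat stress transcription factors. These bind short elements in the promoters of chaperone and other protective genes, some of which give almost no transcript at mild temperature. Sustained warmth also alters growth, hormone signalling and the timing of flowering, so genes that are on in heat and off in control need not be part of the acute chaperone response. The reference gene table (BTI_SOV_V1 assembly) gives a locus number for 20 of the 21 genes and a gene name for 0 of them, so no role is stated for any member. The unmatched one is called gene 110801444 here.

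Libraries held between 42.3 and 56.8 M counts, and 1 read corresponded to 0.0179 to 0.0262 CPM. The control limit of 0.2 CPM thus amounted to between 7.63 and 9.92 reads in a control library, and the heat limit of 1 CPM to between 49.6 and 56.0 reads in a heat library. No replicate pair agreed within sampling noise, with a chi-square per degree of freedom of at least 83.1. Taken across genes, which are not independent replicates, Pearson correlations of log2 CPM came to 0.943 to 0.962 within heat, 0.932 to 0.963 within control and 0.867 to 0.901 between the groups. Heat library 3 correlated with the control libraries at 0.874 to 0.901, and heat libraries 1 and 2 at 0.867 to 0.878. As the tissue is not labelled, 6 leaf genes of photosynthesis and photorespiration were summed as a check. They reached between 3642 and 4149 CPM in heat and between 22347 and 23686 CPM in control, so leaf transcripts were abundant in every library, and all 6 were called lower in heat, as were 13.6% of all genes tested by edgeR. Whether this fall has a part in the results below was not tested, and in such bulk samples fewer cells of a type and less RNA per cell cannot be told apart.

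Genes with almost no reads in control were common, and few of them were on in every heat library. At or below 0.2 CPM in each control library were 11324 of the 30675 genes, of which 7464 had 0 reads in all 6 libraries. Of the 11324, 21 reached 1 CPM in all 3 heat libraries, 27 in 2 of them, 73 in 1 and 11203 in none. Of the 27 that missed the limit in a single heat library, 17 missed it in heat library 3, 5 in heat library 2 and 5 in heat library 1. Of the 73 that reached it in a single one, 17 did so in heat library 1, 34 in heat library 2 and 22 in heat library 3. With the limits exchanged between the groups, 21 genes were on in every control library and nearly silent in every heat library. The numbers were thus equal in both directions under the scaling used here. The exchanged count is given for this scaling only, and library totals alone gave 32 genes in place of the 21 members. Both limits were also met by 5 of the added models.

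**Figure D1:**
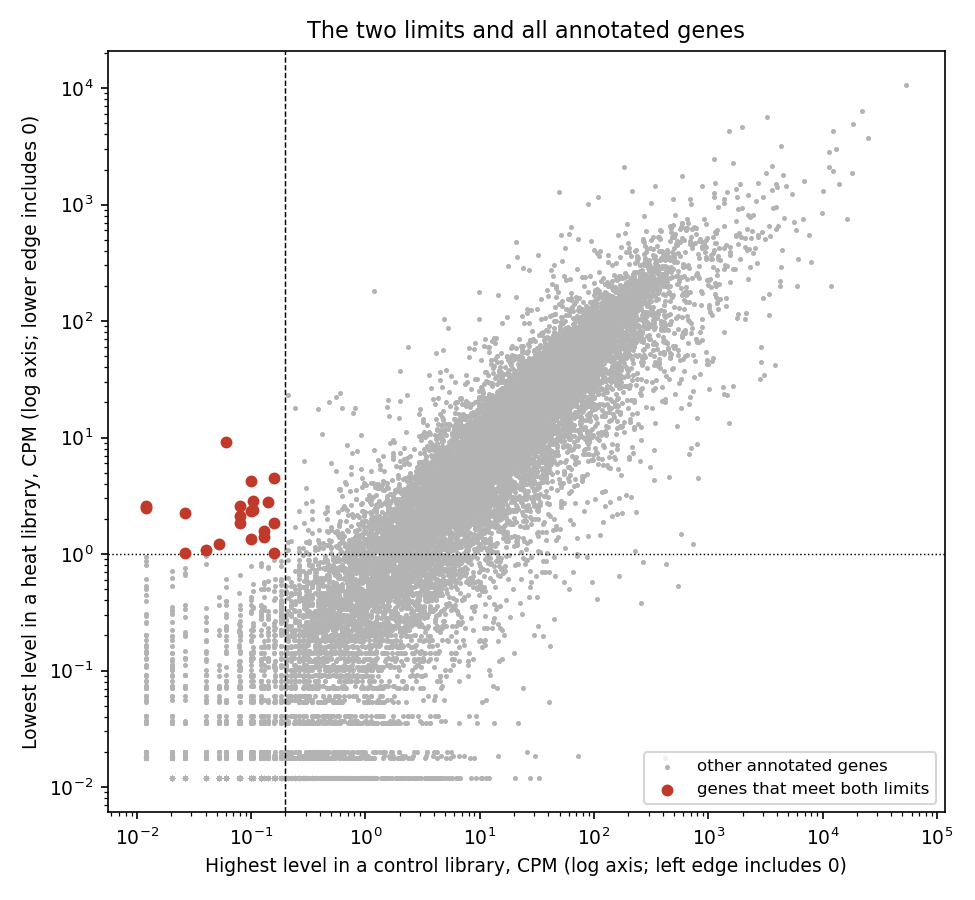
Each point is an annotated gene (values of 0 are drawn at the left or lower edge), at its highest CPM in a control library (horizontal, log axis) and its lowest CPM in a heat library (vertical, log axis); the dashed line is the control limit of 0.2 CPM and the dotted line the heat limit of 1 CPM. The 21 genes that meet both limits (red) lie at the edge of the cloud, between 1.02 and 9.08 CPM in their lowest heat library, and other genes lie just across both lines.

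The limits cut through a continuum of levels. Closest inside the heat limit was LOC110779920, with 1.02, 1.59 and 1.03 CPM in heat libraries 1 to 3, against 0.0202, 0.0202 and 0.157 CPM in control libraries 1 to 3. LOC110779000 had 1.02, 1.07 and 1.64 CPM in heat, and a single read in the control libraries together. The next was LOC110777390, at 1.75, 1.19 and 1.09 CPM in heat, against 0.0202, 0.0403 and 0.0262 CPM in control. Closest outside this limit, LOC110781166 had 0.9998, 1.09 and 1.51 CPM in heat with 1 read in control, LOC110784648 fell short at 0.996 CPM in heat library 3, and LOC110778983 at 0.968 CPM in heat library 2. On the control side, the highest level inside the limit was 0.157 CPM, 6 reads in control library 3, for LOC110779920, LOC110801096 and gene 110801444. Closest outside were LOC110794608 at 0.202 CPM in control library 2, and LOC110778232 and LOC110796883, both at 0.210 CPM in control library 3. LOC110778232 had 8 reads in control library 3, where the limit was 7.63, and stood at 25.7, 36.3 and 23.1 CPM in heat libraries 1 to 3, a lowest heat level above that of all 21 members.

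Each library was also left out in turn. Genes were chosen with the same limits in the other 5, and their level in the library left out was read. Without heat library 1, 28 genes were chosen, of which 22 (78.6%) stood at 1 CPM or more in it and 28 above 0.2 CPM. Without heat library 2, 20 of 28 (71.4%) stood at 1 CPM or more in it and 26 above 0.2 CPM. Heat library 3 was met least often, with 23 of 39 genes (59.0%) at 1 CPM or more and 36 above 0.2 CPM. In control, 23 of 37 (62.2%), 23 of 35 (65.7%) and 24 of 35 (68.6%) genes stood at or below 0.2 CPM in libraries 1, 2 and 3 when each was left out, and 35, 30 and 35 of them stood below 1 CPM. The second count of each pair used the limit of the other group, which is easier to meet. In each case 19 to 21 of the chosen genes were members, which met both limits in all 6 libraries by the rule. The shares therefore largely restate the choice and cannot show how far it would hold in a new library. They are a description only, as the libraries may not be from different plants.

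All 21 members passed edgeR's filter on low counts, which they could do through the heat libraries alone. All 21 were called higher in heat by edgeR's quasi-likelihood test at an adjusted p below 0.05, where 11.6% of the 20145 genes tested were called higher and 13.6% lower. The rule used the same contrast, so nothing is read from these calls. They also do not hold under every tool, as limma-voom called 16 of the 21 (the others were LOC110782346, LOC110789331, LOC110790088, LOC110798499 and LOC110803190).

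The limits themselves force a gap between the groups, and its size varied among the members. For the 19 members with a read in control, the lowest heat library exceeded the highest control library by 6.47-fold (LOC110779920) to 150-fold (LOC110782998), with a median of 23.2-fold. Control libraries held 0 to 7 reads per member, and heat libraries 53 to 3442 reads. A read was seen in every control library for 11 members, in 2 of the 3 for 6, in 1 of the 3 for 2 (LOC110787749 and LOC110779000) and in none for 2. Over the groups as a whole, the pooled ratio of heat to control ran from 20.6 to 431 among the 19, and 11 members had a ratio of at least 100, counting the limits given below for those at 0. These ratios rest on 1 to 13 control reads each and are therefore loose.

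**Figure D2:**
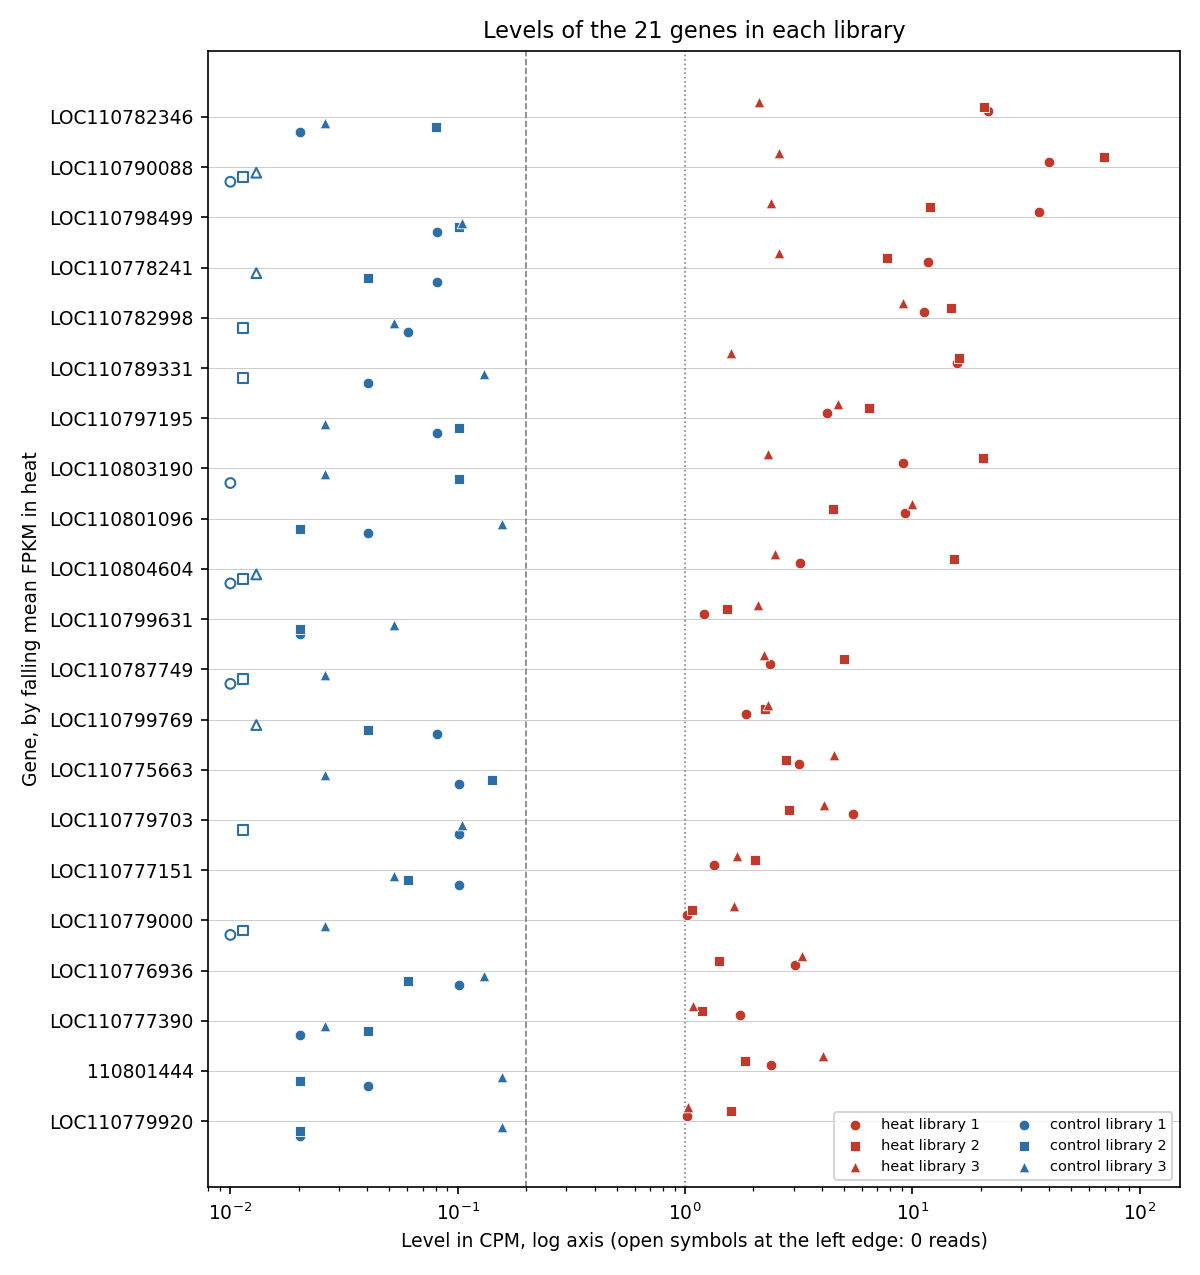
CPM of each of the 21 genes (log axis) in the 3 heat libraries (red) and the 3 control libraries (blue), with libraries told apart by symbol and genes ordered by mean FPKM in heat; open symbols at the left edge stand for 0 reads, and the dashed and dotted lines mark 0.2 and 1 CPM. Heat library 3 (triangles) is far to the left of the other heat libraries for several of the upper genes and among them for most of the lower ones.

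To compare genes with one another, FPKM values (fragment counts scaled by gene length and library total), as deposited by the authors, were used. Mean heat levels ran from 0.484 to 31.4 FPKM with a median of 3.67, beside a median of 8.97 FPKM over the 18679 considered genes tested. Of the 21, 6 lay above that median, 5 were over 10 FPKM and 10 under 3 FPKM. These counts use means over the heat libraries. Among the 6, only LOC110782998 also exceeded 8.97 FPKM in heat library 3, at 11.2 FPKM. The next highest of the 6 in that library was LOC110778241, at 5.16 FPKM. Most of the 21 genes were thus weakly expressed in heat. Together they took 186, 211 and 67.8 CPM in heat libraries 1 to 3, against 0.988, 0.847 and 1.28 CPM in control libraries 1 to 3.

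LOC110782346 had the highest level per length, at 31.4 ± 23.0 FPKM in heat (SD, n = 3) and 0.0674 FPKM in control. Its mean in heat places it above 79.9% of the 18679 considered genes tested. In heat library 3 alone it had 5.004 FPKM, below the median of 8.97 FPKM given above. It had 21.5, 20.7 and 2.12 CPM in heat libraries 1 to 3, against 0.0202, 0.0806 and 0.0262 CPM in control, which is 1, 4 and 1 reads. Heat libraries 1 and 2 were nearly equal and heat library 3 was far below them, though still 26.3 times the highest control library. The pooled ratio was 337 (95% interval 154 to 919, counting error only) and became 645 without control library 2.

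LOC110790088 had 0 reads in every control library and the highest member level of any library. It stood at 39.8, 69.4 and 2.58 CPM in heat libraries 1 to 3, from 2228, 3442 and 140 reads. Set against an upper limit of 3 reads over the control group, heat was at least 1664-fold higher, and heat library 3 alone at least 118-fold higher. The first limit was 984 without heat library 2 and 1063 without control library 1 or without control library 2. Its edgeR call ended without heat library 1 (adjusted p = 0.0512). Per length it reached 23.9 ± 21.02 FPKM in heat (SD, n = 3), so the spread between heat libraries was nearly as large as their mean.

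LOC110804604 was the other member with 0 reads in every control library. It had 3.20, 15.2 and 2.49 CPM in heat, so here heat library 2 stood out and libraries 1 and 3 were close to each other. Heat was at least 306-fold higher than 3 reads over the control group, or at least 130-fold without heat library 2 and 195-fold without control library 1 or without control library 2. No member combined 0 reads in control with 10 CPM in every heat library. Only LOC110782998 reached 5 CPM in every heat library.

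LOC110782998 had the widest gap between its closest heat and control libraries among the 19 members with a control read. It stood at 11.2, 14.8 and 9.08 CPM in heat libraries 1 to 3, against 0.0605, 0 and 0.0524 CPM in control, from 3, 0 and 2 reads. Its level per length in heat was 13.3 ± 2.49 FPKM (SD, n = 3), about that of LOC110778241 but with less spread. The pooled ratio was 318 (95% interval 136 to 981, counting error only), 508 without control library 1 and 203 without control library 2.

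LOC110798499 was highest in heat library 1. It had 35.9, 11.9 and 2.38 CPM in heat libraries 1 to 3, against 0.0807, 0.101 and 0.105 CPM in control, from 4, 5 and 4 reads. The pooled ratio of 181 (95% interval 105 to 340, counting error only) dropped to 73.3 without heat library 1. LOC110778241 was also highest in heat library 1, with 11.7, 7.74 and 2.58 CPM in heat against 0.0807, 0.0403 and 0 CPM in control. LOC110789331 had 15.8, 15.97 and 1.59 CPM in heat against 0.0403, 0 and 0.131 CPM in control. LOC110803190 was at 9.05, 20.5 and 2.32 CPM in heat against 0, 0.101 and 0.0262 CPM in control. In all 4 of these genes heat library 3 was lowest in heat and above every control library.

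A split between the heat libraries thus ran through the 21 genes. In LOC110782346, LOC110790088, LOC110798499, LOC110778241, LOC110789331 and LOC110803190, the level in heat library 3 was 0.0649 to 0.334 times the lower of heat libraries 1 and 2. In the other 15 it was 0.779 to 2.31 times that value, with no gene in between on this ratio. Against the mean of heat libraries 1 and 2 there was no such gap. There LOC110804604, 1 of the 15, had a log2 ratio of -1.88 and LOC110778241, 1 of the 6, had -1.91. The 6 summed to 134, 146 and 13.6 CPM in heat libraries 1 to 3, while the other 15 summed to 52.5, 64.4 and 54.2 CPM. Control sums were 0.222, 0.323 and 0.288 CPM for the 6 and 0.766, 0.524 and 0.996 CPM for the 15. The 6 were also among the 8 with the highest FPKM in heat. The rule favours this, as each member had to reach 1 CPM in heat library 3. A gene low in that library could thus be a member only if heat libraries 1 and 2 were well above the limit. The 6 were singled out after their values were seen and get no test.

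The low level in heat library 3 was shared by other genes that were strongly raised. Among 172 other genes called higher in heat by at least 16-fold, 27.3% had heat library 3 below 0.5 times both other heat libraries, beside 28.6% of the 21 members (6 genes). Among all 2318 other genes called higher it was 3.84%. The shares rest on unlike choices, as members had to reach 1 CPM in heat library 3 and the other genes did not. That limit left out 17 genes that missed it in heat library 3 alone, so the members' values there are cut short by the rule. The median log2 ratio of heat library 3 to the mean of heat libraries 1 and 2 was -0.34 for the members, -0.72 for the 172 and -0.12 for the 2318. Heat library 3 was the lowest heat library for 10 of the 21 members (47.6%), 57.0% of the 172 and 46.6% of the 2318. The ratio of the highest to the lowest heat library had a median of 2.21 for the members, 2.70 for the 172 and 1.39 for the 2318. The leaf genes above summed to 4149, 3642 and 4078 CPM in heat libraries 1 to 3, so heat library 3 lay between the others there. What sets heat library 3 apart was not tested.

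**Figure D3:**
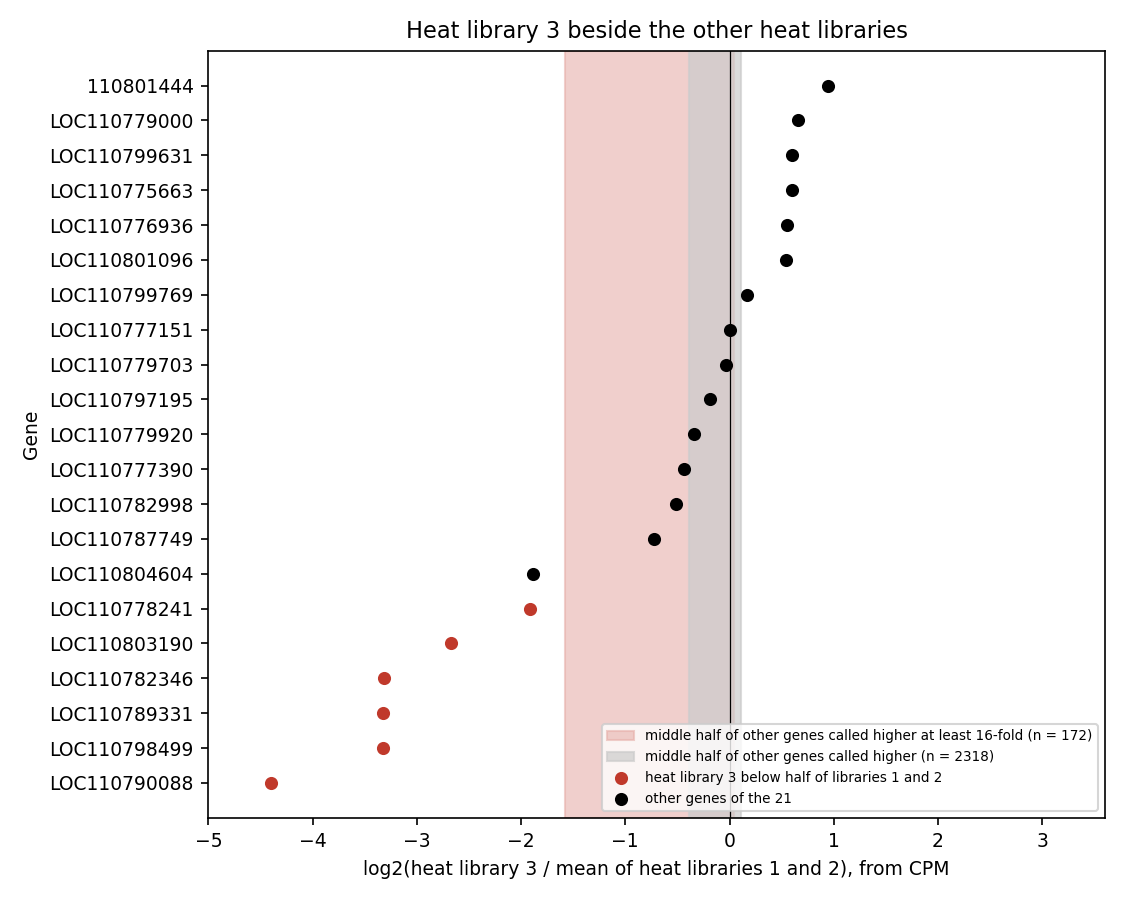
Log2 ratio of heat library 3 to the mean of heat libraries 1 and 2 for each of the 21 genes (points), with shaded bands from the lower to the upper quartile of other genes called higher (grey, n = 2318) and of those raised at least 16-fold (pink, n = 172). The 6 genes in red lie between -4.40 and -1.91, left of both bands; LOC110804604 at -1.88 lies beside them and was high in heat library 2 only, and the other 14 lie between -0.72 and 0.94.

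The other 15 genes had a median ratio of highest to lowest heat library of 1.63 and a range of 1.24 to 6.10. As the 6 were set apart by a low heat library 3, a lower ratio in the 15 is partly built in. At 6.10, LOC110804604 among the 15 varied more than LOC110778241 among the 6 (4.53). The steadiest was LOC110799769, at 1.86, 2.24 and 2.31 CPM in heat against 0.0807, 0.0403 and 0 CPM in control. Next were LOC110777151, at 1.34, 2.04 and 1.70 CPM in heat against 0.101, 0.0605 and 0.0524 CPM in control, and LOC110797195, at 4.21, 6.45 and 4.69 CPM in heat against 0.0807, 0.101 and 0.0262 CPM in control. For these 3 the highest heat library was at most 1.53 times the lowest. The most variable of all 21 were LOC110790088 (26.9-fold between heat libraries), LOC110798499 (15.1-fold) and LOC110782346 (10.2-fold).

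In 7 of these 15 genes heat library 3 was the highest heat library, in 6 heat library 2 and in 2 heat library 1. LOC110801096 had 9.25, 4.46 and 9.94 CPM in heat against 0.0403, 0.0202 and 0.157 CPM in control. LOC110799631 stood at 1.21, 1.53 and 2.08 CPM in heat against 0.0202, 0.0202 and 0.0524 CPM in control. LOC110775663 had 3.16, 2.78 and 4.50 CPM in heat against 0.101, 0.141 and 0.0262 CPM in control. These 3 show that a member could be as high in heat library 3 as elsewhere.

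LOC110776936 had 3.04, 1.41 and 3.27 CPM in heat against 0.101, 0.0605 and 0.131 CPM in control, a pooled ratio of 27.6 (95% interval 15.9 to 52.2, counting error only). Gene 110801444 was at 2.39, 1.83 and 4.06 CPM in heat against 0.0403, 0.0202 and 0.157 CPM in control. In both, heat library 2 was lowest and heat library 3 highest. LOC110779703 reached 5.50, 2.86 and 4.10 CPM in heat against 0.101, 0 and 0.105 CPM in control. LOC110787749 had 2.36, 4.999 and 2.23 CPM in heat and a single control read, in library 3, so that its pooled ratio of 431 has an interval of 76.9 to 17040 from counting error alone. It was 275 without control library 1 or without control library 2, and no control read is left without control library 3. The smallest pooled ratio was that of LOC110779920, at 20.6 (95% interval 10.3 to 48.5, counting error only), or 59.6 without control library 3, which held 6 of its 8 control reads.

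The members were set beside the other annotated genes for features that the rule did not use. All 20 matched members are classed as protein-coding, beside 87.1% of the 25247 considered genes that matched. The match itself held for 20 of 21 members and for 82.3% of all considered genes. Both bases include genes with 0 reads in all 6 libraries (7464 of all considered genes), whereas members had to be expressed in heat. The shares are therefore not alike. Counted lengths, recovered from the deposited counts and FPKM, ran from 528 bp (LOC110799631) to 4504 bp (gene 110801444) with a median of 1454 bp, beside 1594 bp over the considered genes tested. A single transcript model was listed for 15 of the 20, and at most 4 (LOC110776936). By chromosome, 7 members lie on chromosome 2, 7 on chromosome 4, 4 on chromosome 5 and 1 each on chromosomes 1 and 3. Of all matched considered genes, 17.1% lie on chromosome 1, 14.8% on chromosome 2 and 16.7% on chromosome 3. The shares are 20.9% for chromosome 4, 13.7% for chromosome 5 and 16.7% for chromosome 6, which holds no member. With 20 genes these shares are a description only. Gene lists for heat responses and other tissues could be matched by gene name only, and so could not place any member.

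The direct neighbours of the members on the chromosomes were called about as often as other genes in the main edgeR test. The count depends on the scaling and the tool, and more neighbours were called higher under several alternatives. The 20 placed members have 40 neighbouring genes in the order of the BTI_SOV_V1 table, of which 28 are listed in the count table and 22 were tested. None of the 40 is itself a member. Of the 22, 3 (13.6%) were called higher and 2 (9.09%) lower in heat by edgeR, close to the shares over all genes tested given above, and 17 passed in neither direction. The median log2 fold change of the 22 was 0.13, and 0.01 over all genes tested. Scaling by library size alone moves the median of all genes to 0.47, and then 11 of the 22 neighbours were called higher, beside 31.2% of all genes tested. Of those listed but not tested, 4 had 0 reads in all 6 libraries.

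Several genes beside a member were well expressed and level between the regimes. LOC110777391, next to LOC110777390, had 565 ± 71.0 CPM in heat and 501 ± 41.6 CPM in control (SD, n = 3 each; edgeR adjusted p = 0.494). LOC110797196 and LOC110797193, on either side of LOC110797195, had 27.8 ± 1.10 and 40.4 ± 1.25 CPM in heat, against 25.8 ± 1.57 and 40.0 ± 2.25 CPM in control (edgeR adjusted p = 0.563 and 0.925). A p that misses the threshold does not show that these levels are equal.

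For LOC110782998 and LOC110789331, a direct neighbour was raised as well. LOC110782997, next to LOC110782998, had 39.0, 38.1 and 20.4 CPM in heat, against 1.63, 1.55 and 2.02 CPM in control (edgeR log2 fold change 4.23, adjusted p = 0.000476). LOC110789309, next to LOC110789331, had 90.4, 32.5 and 21.2 CPM in heat, against 1.57, 1.15 and 0.0262 CPM in control (edgeR log2 fold change 5.67, adjusted p = 0.00887). Both neighbours failed the control limit and so are no members, and both were lowest in heat library 3 among the heat libraries, as were LOC110782998 and LOC110789331. Both calls held under every alternative run. How multi-mapping reads were counted is not known here, so if a member and its neighbour are near-identical copies, their reads cannot be told apart.

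The other 3 neighbours that were called changed less. LOC110804606, next to LOC110804604, rose to 6.41, 7.36 and 5.57 CPM in heat, against 2.44, 2.84 and 2.49 CPM in control (edgeR log2 fold change 1.32, adjusted p = 0.00889). LOC110779694, next to LOC110779703, fell to 4.96, 6.05 and 12.2 CPM in heat, against 54.7, 41.3 and 21.7 CPM in control (edgeR log2 fold change -2.34, adjusted p = 0.0116). This call was lost with limma on unfiltered log2(FPKM + 1) (adjusted p = 0.0555). LOC110790091, next to LOC110790088, had 6.57, 10.3 and 6.20 CPM in heat, against 12.7, 20.3 and 39.5 CPM in control (edgeR log2 fold change -1.65, adjusted p = 0.0322). That of LOC110790091 ended without heat library 1 or 3 or control library 2 or 3 (edgeR adjusted p from 0.0542 to 0.115), and in all 3 limma fits on FPKM (adjusted p from 0.0604 to 0.107). In all, 2 members overlap a neighbour in this table, LOC110776936 with LOC110793070 (1.66 ± 0.377 CPM in heat and 0.798 ± 0.106 CPM in control) and LOC110801096 with a long non-coding RNA gene that is not analysed here, so reads of the overlapping parts are uncertain in origin.

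**Figure D4:**
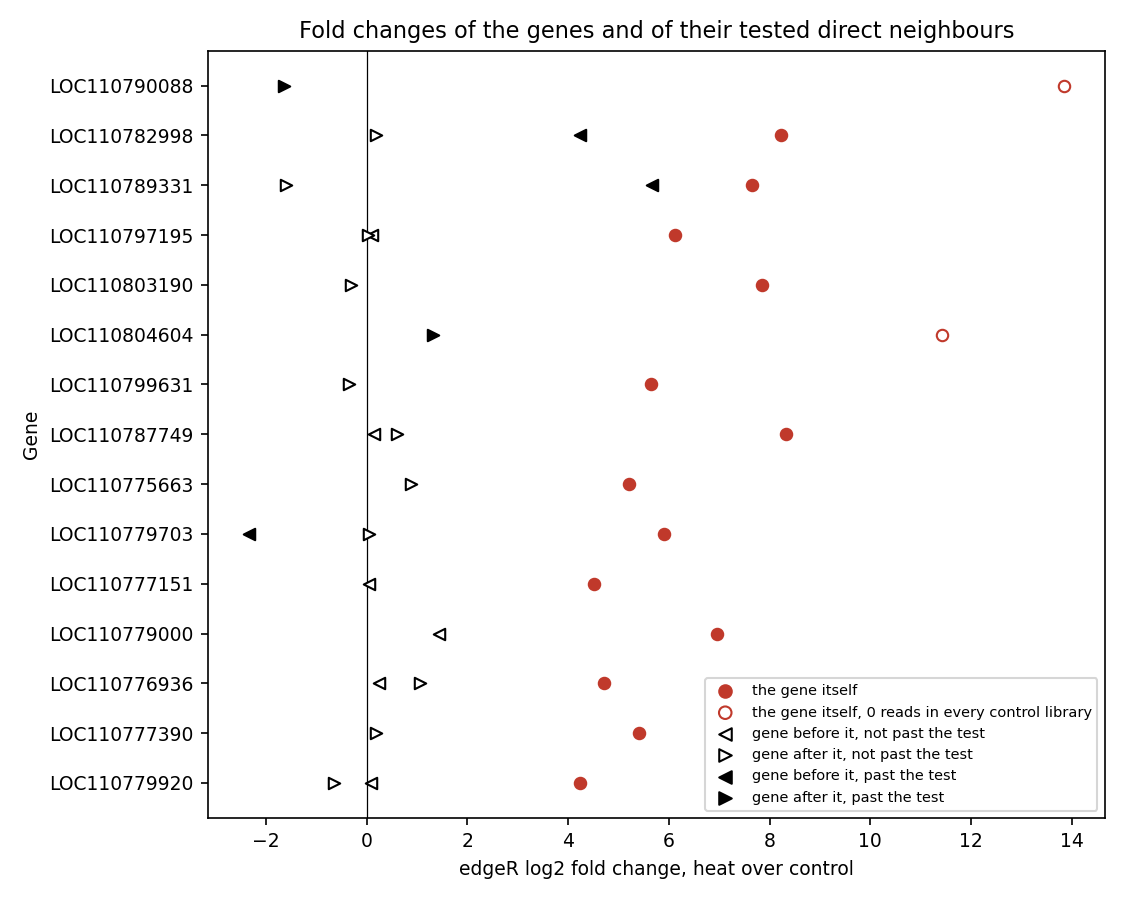
edgeR log2 fold change of heat over control for the members with at least 1 tested direct neighbour (red) and for those neighbours (triangles, pointing left for the gene before and right for the gene after, filled where past the test). Red open circles are the members with 0 reads in every control library, whose fitted value depends on edgeR's prior count; 17 of the 22 neighbours lie between -1.60 and 1.44 without passing the test, and LOC110782997 and LOC110789309 lie farthest to the right among neighbours.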

How the data were processed

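The authors deposited whole-number read counts per gene, without normalization, and FPKM values, which equal count over gene length and library total within a relative tolerance of 1e-06 for all 24889 genes whose length could be recovered. The tools, per the submitters' processing notes, included DESeq 1.18.0, HTSeq 0.9.1 and HISAT2 2.0.4, in unstated roles. Build, annotation, strand and multi-mapping rules were not given in the sources used here, so counts of overlapping or near-identical genes may be shared or lost. Counts were divided by median-of-ratios size factors and scaled by the mean library total to give CPM. All genes were tested with edgeR 4.0.16 (R 4.3.3) by its quasi-likelihood test, with TMM, a filter on low counts and group as only term. The test was two-sided on all 6 libraries, with Benjamini-Hochberg adjustment over 20145 genes. On simulated data with 200 of 19823 genes changed 4-fold, 118 of the 200 were recovered, with 5 false calls. Changes of that size can thus be missed. A far larger share of genes was called in the real data, so the recovered share need not hold there. Alternatives used DESeq2 1.42.0, limma 3.58.1 (voom, and log2(FPKM + 1)), other scalings and left-out libraries. Pooled ratios have exact binomial intervals (scipy 1.17.1). Depth was 42.3 to 56.8 M counts per library, and intervals and the limit of 3 reads for a count of 0 cover counting error only.

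Named genes were the 10 highest by mean heat FPKM, the steadiest and most variable, those nearest each limit and neighbours. The remaining members were added for completeness, and the 6 genes with low heat library 3 and the other neighbours shown were chosen after their values were seen. The members and lists were chosen with earlier results of these data known. Planned promoter motifs, protein relatives and description-based lists were not analysed here, and no sequence was used. Genes were placed by the BTI_SOV_V1 table for names and order only.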

Additional observations from a re-analysis of the deposited data

How the results depend on the processing

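The number of genes meeting both limits, 21, became 32 with library totals alone, 36 on FPKM (17 of the 21 shared), 10 and 52 with a control limit of 0.1 and 0.4 CPM, and 56 and 12 with a heat limit of 0.5 and 2 CPM. TMM scaling gave 23, as did size factors from the considered genes alone, a setting added after the data were seen. Leaving out 1 library gave 28 to 39 genes, most without heat library 3. Of 315 member fold changes under alternatives, all were positive and 7 missed the threshold, 5 of them with limma-voom (adjusted p from 0.0653 to 0.161), LOC110790088 without heat library 1 and LOC110779920 without control library 2 (adjusted p = 0.0540). Leaving out 1 library left 20 or 21 members called. Over all genes, edgeR called 2339 higher and 2735 lower. The counts were 6288 and 1471 under library size alone, 6451 and 1562 with limma on log2(FPKM + 1), 6131 and 1487 on log2(FPKM + 0.1), and 6351 and 1432 on log2(FPKM + 1) without a filter. Leaving out 1 library gave 864 to 1924 higher and 1427 to 2464 lower. Of the 22 tested neighbours, 5 were called higher with DESeq2, beside 9.53% of all 32450 listed genes. That base includes genes with 0 reads, while the 22 had passed edgeR's filter on low counts, so the 2 shares are not alike. In the limma fits on FPKM, 9 to 12 of the 22 were called higher (25.5% to 32.0% of all genes). Over all alternatives 0 to 2 of the 22 were called lower. With the replicate number as a block there were 1048 higher and 1580 lower, and all 21 members were called. Deviations of same-numbered libraries from their group means correlated at -0.134, -0.126 and -0.295, and those of other pairs at -0.179 to 0.286. Deviations within a group of 3 are tied to each other, so these values cannot settle whether libraries were paired. With few control reads, depth limits every ratio of heat to control.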
